A study of Mus musculus with 2 samples.

Results

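The proximal miRNA genes of the imprinted Dlk1-Dio3 domain on mouse chromosome 12 were examined in the adrenal gland. They are the 10 genes Mir493, Mir337, Mir540, Mir665, Mir431, Mir433, Mir127, Mir434, Mir432 and Mir136, taken by name and position near Meg3 and opposite Rtl1, out of 2202 annotated miRNA genes. All 10 were found in the deposited tables. The glands came from B6CASTF1/J females at an age of 36 days, a first-generation hybrid of a laboratory and a wild-derived strain. They formed 1 group of 2 microRNA-seq libraries with no treatment and no second tissue. The libraries are labelled as biological replicates 1 and 2 from separately numbered females, but carry the same donor identifier, so p-values and SDs may describe a technical spread.

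The Dlk1-Dio3 domain is expressed by parent of origin. Dlk1, Rtl1 and Dio3 are protein-coding genes active on the paternal chromosome, while Meg3 and a series of noncoding RNAs that carry the miRNAs are made from the maternal one. Rtl1 encodes a protein derived from a retrotransposon, and miRNAs transcribed opposite to it are known in mouse to guide cleavage of the Rtl1 message. The tables count reads per hairpin gene. They do not separate the maternal from the paternal allele, nor the 5p from the 3p arm of a hairpin.

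All 10 genes lie on the plus strand within 15.2 kb (mm10, GENCODE M21 annotation). The hairpins of 6 of them lie wholly inside the coding sequence of Rtl1. The whole Rtl1 gene runs on the minus strand and spans chr12:109589193-109600330 in GENCODE. Read in the direction of Rtl1, Mir136 comes first, at nucleotides 16 to 77 of a coding sequence of 5235 nucleotides. It is followed by Mir432 (374 to 448), Mir434 (805 to 898), Mir127 (2489 to 2558), Mir433 (3566 to 3689) and Mir431 (4867 to 4957). The other 4 genes, Mir493, Mir337, Mir540 and Mir665, lie outside GENCODE's Rtl1, between it and Meg3. The RefSeq gene model of Rtl1 is longer and spans all 10. None of the 10 has an annotated host gene on its own strand in GENCODE M21.

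The mature sequences that follow belong to the 4 most abundant genes, to Mir665, which differed most between the libraries, to Mir136, which was seen only with strand, and to Mir432, which had no read. They are RefSeq sequences on GRCm38.p6, read 5′ to 3′, with the seed (bases 2 to 8, which pair with targets) in capitals.
miR-127-5p: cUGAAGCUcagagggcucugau
miR-127-3p: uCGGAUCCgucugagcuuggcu
miR-431-5p: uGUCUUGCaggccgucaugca
miR-431-3p: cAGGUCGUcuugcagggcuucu
miR-433-5p: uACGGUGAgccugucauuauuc
miR-433-3p: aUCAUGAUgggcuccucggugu
miR-337-5p: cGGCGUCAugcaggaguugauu
miR-337-3p: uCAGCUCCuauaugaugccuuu
miR-665-5p: aGGGGCCUcugccucuauccaggauu
miR-665-3p: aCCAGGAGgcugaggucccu
miR-136-5p: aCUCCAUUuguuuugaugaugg
miR-136-3p: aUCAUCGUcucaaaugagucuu
miR-432: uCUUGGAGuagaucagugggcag

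RefSeq gave 19 mature sequences for the 10 genes, and all 10 hairpins matched GENCODE M21 in position and sequence. The 19 seeds were all different, so no shared seed groups these genes into a family. Of the 19, 18 occurred in no other gene among the 1738 mature sequences of the RefSeq table. The exception was miR-540-3p, whose seed is also that of miR-6915-5p. Its gene, Mir6915 on chromosome 10, was named after its values were seen and was near the limit of detection, with 6 reads in replicate 1 and 3 reads in replicate 2. No mature sequence of the 19 occurred whole in another annotated miRNA hairpin. The longest stretch that a hairpin of the 10 shared with any other was 14 bases, in Mir493. Within the 10, the longest was the 11 bases CGUCAUGCAGG common to Mir337 and Mir431.

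All 11 mature sequences of the 6 genes inside Rtl1 had a fully complementary site in the GENCODE transcript of Rtl1, as their position opposite its coding exon requires. The 8 mature sequences of the other 4 genes had none. The sites of the most abundant gene and of the gene with no read are shown on the Rtl1 strand, with the match to the seed in capitals.
Rtl1 site of miR-127-5p (chr12:109592854-109592875, mm10, minus strand): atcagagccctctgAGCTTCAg
Rtl1 site of miR-127-3p (chr12:109592888-109592909, mm10, minus strand): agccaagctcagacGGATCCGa
Rtl1 site of miR-432 (chr12:109595006-109595028, mm10, minus strand): ctgcccactgatctaCTCCAAGa
These are matches of letters, and the counts do not measure cleavage or the Rtl1 message.

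Sense reads of miRNA genes numbered 5397603 in replicate 1 and 3029977 in replicate 2. Reads that mapped to several places (28.5% and 30.6% of all reads) are counted for no gene. Levels are CPM, the sense count of a gene per 1000000 such reads of its library, and 95% Wilson intervals cover counting error only. The miRNAs of endocrine and chromaffin cells that stood for the labelled tissue (Mir375, Mir7-1, Mir7-2 and Mir7b) were detected in 4 of 4, and their summed level was 31668 CPM in replicate 1 against 25395 CPM in replicate 2. The messages that define the gland were not measured by this assay.

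Together the 10 genes held 1.68% of the sense counts in replicate 1 (95% Wilson interval 1.67 to 1.69%) and 1.59% in replicate 2 (1.57 to 1.60%), or 1.63% ± 0.0658 (SD, n = 2). Mir127 alone gave most of this, and 9 of the 10 were detected (10 counts or more in each library), where 15.4% of all 2202 genes were. Mir432 had 0 counts in both. The counted genes spanned a range of 790-fold in replicate 1 and 699-fold in replicate 2, from Mir127 down to Mir493.

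Mir127 (ENSMUSG00000070076.2, chr12:109592846-109592915), whose miRNA was reported in human cells to act on the transcription factor BCL6, had 64798 counts in replicate 1 and 35627 in replicate 2. That was 12005 CPM (11913 to 12097) and 11758 CPM (11637 to 11880), or 11882 ± 174.5 CPM (SD, n = 2). It ranked 19 of 2202 in each library and was the only gene of the 10 among the top 20. It held 71.4% of the counts of the 10 genes in replicate 1 and 74.0% in replicate 2, which is 2.50 and 2.85 times all the others together.

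The next level was shared by a trio, Mir431 and Mir433 inside Rtl1 and Mir337 outside it. Mir431 (chr12:109590447-109590537), reported in mouse muscle stem cells, had 1264 CPM in replicate 1 and 1321 CPM in replicate 2. Mir433 (chr12:109591715-109591838) had 1278 and 1062 CPM. Mir337 (chr12:109585789-109585885) had 1285 and 1025 CPM. Their means were 1293 ± 40.3, 1170 ± 152 and 1155 ± 184 CPM, and their order was not the same in the libraries, with Mir337 first in replicate 1 and last in replicate 2. With Mir127, these genes made up 94.2% of the counts of the 10 in replicate 1 and 95.5% in replicate 2.

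Mir540 (chr12:109586080-109586146), which starts 194 bases after the end of Mir337, had 515 CPM in replicate 1 and 360 CPM in replicate 2. Mir434 (chr12:109594506-109594599) had 292 and 247 CPM. These genes stood below the trio in both libraries, with means of 437 ± 110 and 269 ± 31.6 CPM.

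The lowest counted genes were Mir136, Mir665 and Mir493. Mir136 (chr12:109595327-109595388) was nearly the same in both libraries, at 70.2 CPM from 379 counts in replicate 1 and 68.3 CPM from 207 counts in replicate 2. Mir665 (chr12:109586314-109586407) had 89.3 CPM from 482 counts in replicate 1, but 24.1 CPM from 73 counts in replicate 2. Its mean of 56.7 ± 46.1 CPM therefore has an SD of 81.3% of the mean, where those of the other 8 counted genes were between 1.47% and 25.1%. Mir493 (chr12:109580233-109580315) had 15.2 CPM from 82 counts in replicate 1 and 16.8 CPM from 51 counts in replicate 2.

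Mir432 (chr12:109594956-109595030) lies 356 bases after Mir434 and 296 bases before Mir136, and both of these were counted. With 3 counts as the limit that 0 counts allow, its level could be as high as 0.556 CPM in replicate 1 and 0.990 CPM in replicate 2. Against that limit, even the observed count of Mir493 was 27.3-fold higher in replicate 1 and 17.0-fold higher in replicate 2. These folds leave out the counting error of Mir493. Reads of Mir432 that mapped to several places would not be counted. Its hairpin shares at most 11 bases with any other annotated miRNA hairpin, but the rest of the genome was not searched. The part of multiple mapping in its 0 counts was not tested.

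**Figure D1:**
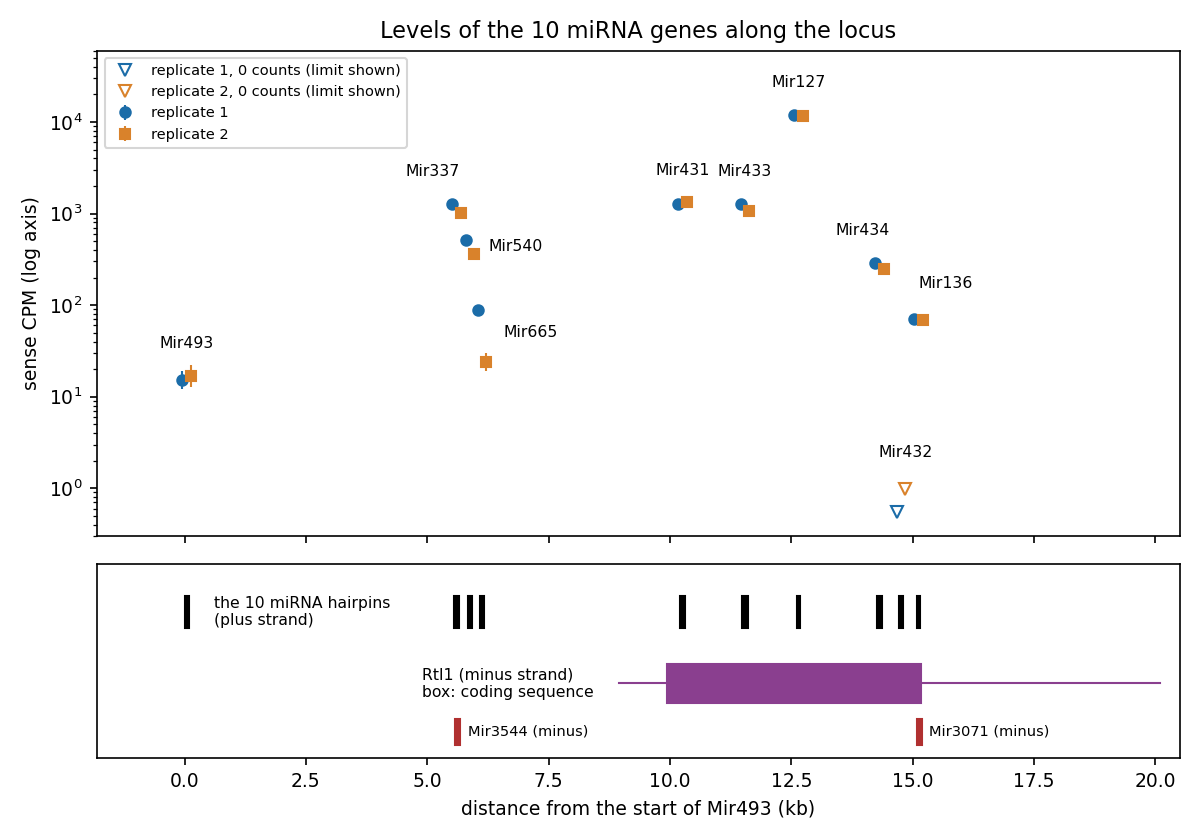
Top, sense CPM (log axis) of the 10 miRNA genes in each library against distance from the start of Mir493 in kb, with 95% Wilson intervals and points moved sideways by 0.09 kb to separate the libraries. Open triangles mark the limit of Mir432, which had 0 counts. Bottom, the hairpins, Rtl1 with its coding sequence as a box, and the miRNA genes Mir3544 and Mir3071 of the minus strand. Mir127, inside the Rtl1 coding sequence, stands at 12005 CPM in replicate 1 and 11758 in replicate 2, above every other gene shown.

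Genes close together differed in level. Mir337, Mir540 and Mir665 follow each other with gaps of 194 and 167 bases. Mir337 was 2.50-fold above Mir540 in replicate 1 and 2.85-fold in replicate 2, and Mir540 was 5.77-fold and 14.9-fold above Mir665. Of the counts of the 10 genes, the 6 inside Rtl1 held 88.7% in replicate 1 and 91.0% in replicate 2, and the 4 outside held 11.3% and 8.98%. Most of the share inside was that of Mir127 alone, at 71.4% and 74.0%. Inside Rtl1 the levels ran from 11882 CPM to no count.

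The order of the 9 counted genes was set against the spread between the libraries. Over all genes that spread was a coefficient of variation of 41.6% (edgeR's common dispersion), which sets a limit of 2.26-fold for the geometric means of 2 genes. Of the 8 neighbouring pairs in the order of mean CPM, 4 differed by more. They were Mir127 over Mir431 (9.19-fold), Mir337 over Mir540 (2.67-fold), Mir434 over Mir136 (3.87-fold) and Mir665 over Mir493 (2.90-fold). The last rests mostly on replicate 1, where Mir665 was 5.88-fold above Mir493, against 1.43-fold in replicate 2. The limit is for means over both libraries and does not apply to the fold of 1 library. Mir431 and Mir433 (1.11-fold), Mir433 and Mir337 (1.01-fold), Mir540 and Mir434 (1.60-fold) and Mir136 and Mir665 (1.49-fold) did not differ beyond the limit. The order of Mir136 and Mir665 was opposite in the libraries, with Mir665 higher in replicate 1 and Mir136 higher in replicate 2. Of all 36 pairs of the counted genes, the libraries gave the same order in 32, and 31 exceeded the limit. These are orders of read counts, since yield in library preparation may differ between sequences.

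**Figure D2:**
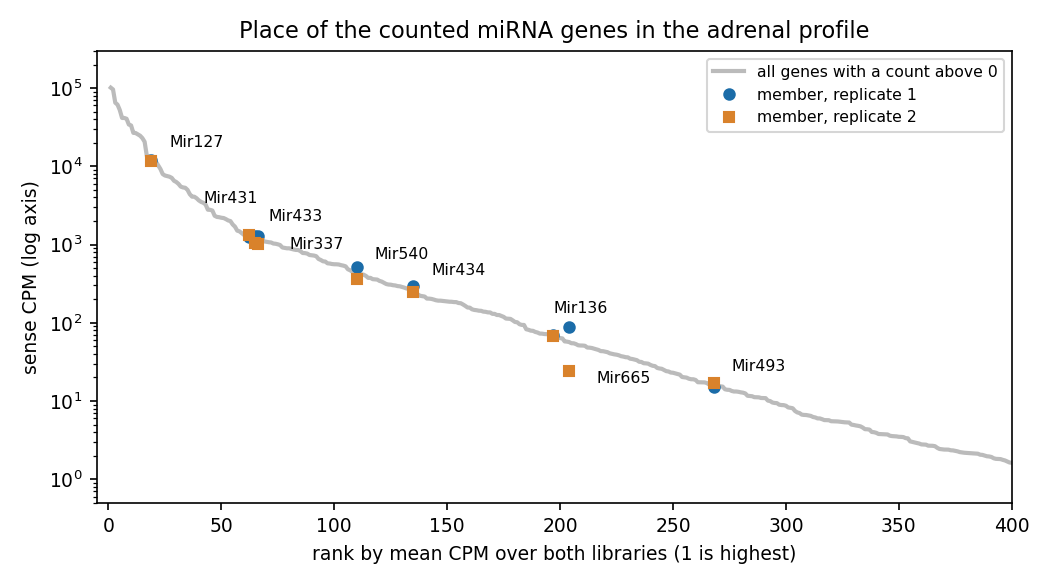
Mean CPM (log axis) of all miRNA genes with a count against their rank (grey line, shown to rank 400), with the 9 counted genes of the 10 in each library. Mir127 ranks 19, Mir431, Mir433 and Mir337 rank 62, 65 and 66, and only Mir665, at rank 204, shows libraries well apart.

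In level, Mir127 was closest to 3 genes of other chromosomes. By Euclidean distance in log2(CPM + 1) over the 2 libraries, among 275 other genes with at least 100 counts, these were Mir30a (distance 0.0956), Mir30e (0.155) and Mirlet7d (0.255). Mir30a had 11240 CPM in replicate 1 and 11667 in replicate 2. This likeness rests on 2 libraries and is one of level only.

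Between Dlk1 and Dio3 there are 49 further plus-strand miRNA genes, and the 10 proximal genes held 40.0% ± 0.405 of the counts of the 10 and the 49 combined (SD, n = 2). The median level was 353 CPM for the 10 proximal genes and 102 CPM for the 49, of which 40 were detected. In both sets 4 genes exceeded 1000 CPM. The highest of the 49 were Mir411 (5961 ± 49.6 CPM), Mir379 (5373 ± 760) and Mir541 (3511 ± 393), all below Mir127. No test of this difference was made, since the sets are lists of genes and not replicates. Mir3070a and Mir3070b, named after their values were seen, lie between Mir665 and Mir431. They had 36 and 18 counts in replicate 1, and 13 and 11 in replicate 2. Their hairpins of 89 bases share an unbroken stretch of 43 bases with each other, so these counts are uncertain.

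The ratios of replicate 1 over replicate 2 were small for most of the genes. They were scaled by TMM and tested against counting error with an exact two-sided binomial test, Benjamini-Hochberg adjusted over all 434 genes with a summed count of 10 or more. This compares 2 libraries and no conditions. It called 4 of the 9 counted genes, where 58.5% of all tested genes were called. Of these, 2 were higher in replicate 1 (background 30.2%) and 2 were higher in replicate 2 (background 28.3%). The median log2 ratio was -0.06 over the 9 genes and 0.06 over all tested genes. The median size of the log2 ratio was 0.26 over the 9, 0.45 over the 41 tested genes of the rest of the locus and 0.57 over all 434.

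Mir665 was higher in replicate 1 by a log2 ratio of 1.58 (95% counting interval 1.23 to 1.96, exact binomial test, adjusted p = 1.52e-22), or 2.99-fold. Without any scaling, its counts were 0.744% of those of Mir127 in replicate 1 and 0.205% in replicate 2. Mir540, its neighbour, was higher in replicate 1 by 0.21 (0.11 to 0.32, adjusted p = 6.59e-05), and also in relation to Mir127, at 4.29% against 3.06% of its counts. Mir431 was higher in replicate 2, with a log2 ratio of -0.37 (-0.42 to -0.31, adjusted p = 1.31e-35). Mir127 was higher in replicate 2 by TMM, at -0.27 (-0.29 to -0.25, adjusted p = 2.75e-175), but higher in replicate 1 by total counts, at 0.03. The other 5 did not pass, with log2 ratios of 0.02 for Mir337, -0.04 for Mir433, -0.06 for Mir434, -0.26 for Mir136 and -0.46 for Mir493.

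Scaling to total counts raises every ratio by 0.30 on the log2 scale. It gave 6 genes higher in replicate 1 (background 43.5%) and 1 higher in replicate 2 (background 19.1%). DESeq2 size factors gave 2 and 4 (backgrounds 27.4% and 31.6%). Mir665 and Mir540 were higher in replicate 1, and Mir431 in replicate 2, under each of these scalings. With the common dispersion as the error, edgeR's exact test called none of the 9 genes and 0 of all 434. That dispersion was estimated from the same 2 libraries as 1 group, so their difference is itself part of the error. The test was thus unlikely to call any gene, and no conclusion is drawn from it. At an unadjusted p under 0.05 the exact test had 24 genes, none of them among the 9, of which Mir665 had the smallest p at 0.0808. The limit that the same dispersion sets for a ratio of 2 libraries was 3.16-fold. All 9 genes lay within this limit by TMM, as did 88.0% of all tested genes. By total counts Mir665, at a log2 ratio of 1.88, lay outside the limit's log2 value of 1.66. By TMM the 4 calls thus passed against counting error and not with the common dispersion, and the direction of the Mir127 call turned with total counts.

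**Figure D3:**
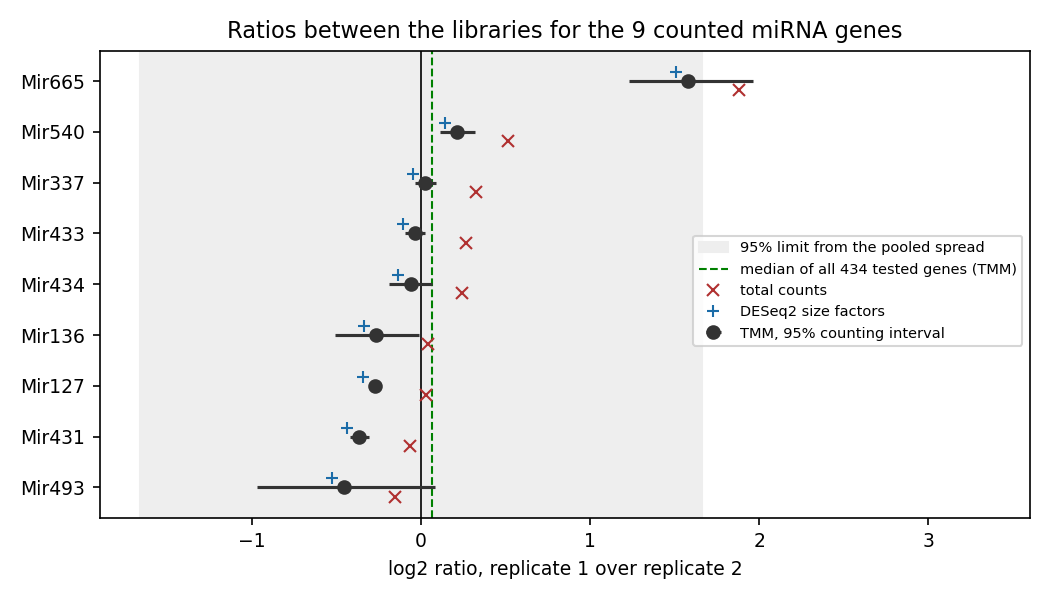
Log2 ratio of replicate 1 over replicate 2 for the 9 counted genes, with TMM scaling and 95% counting intervals (circles), total counts (crosses) and DESeq2 size factors (plus signs). The grey band is the 95% limit from the pooled spread and the dashed line the median of all 434 tested genes. Mir665 at 1.58 stands apart from the others, which lie between -0.46 and 0.21 by TMM.

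The CPM of marker miRNAs also differed between the libraries for most other cell types, and least for striated muscle. These CPM were not set against the spread between the libraries. Mir126a of endothelium had 133209 CPM in replicate 1 and 69285 CPM in replicate 2, and both smooth-muscle genes were detected with a sum of 30240 and 59237 CPM. Mir122 of hepatocytes had 1503 and 146 CPM. The 2 red-cell genes summed to 1158 and 558 CPM, the 3 white-cell genes to 991 and 1685 CPM, and the 2 epidermal genes, of which 1 was detected, to 823 and 3691 CPM. The 3 kidney genes, 2 of them detected, summed to 131 and 57.4 CPM. The 3 striated-muscle genes, 1 of them detected and 1 at 0 in both, summed to 474 and 494 CPM. Their part in the ratios of the 10 genes was not tested. In whole tissue, fewer cells of a type and less RNA per cell cannot be told apart. Hairpin GC content, with which the ratios over all genes ran in the same direction (Spearman's rho 0.348 across 284 genes with at least 100 counts), was 53.2% for Mir665, and ran from 40.3 to 61.2% over the 10. Across the 9 counted genes rho was 0.067, and the part of GC content in the ratios was not tested.

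Strand decided whether a pair of the genes was counted. Each gene has a count without strand, a sense count and an antisense count. Mir337 and Mir136 each overlap a miRNA gene of the minus strand. The 61-base hairpin of Mir3544 lies inside that of Mir337, and the 62-base hairpin of Mir136 lies inside the 80-base hairpin of Mir3071. Mir136 had 379 sense counts in replicate 1 and 207 in replicate 2, but 0 in both without strand. The same reads appear as the 379 and 207 antisense counts of Mir3071, which had no sense count of its own. For the other 7 counted genes the count without strand equalled the sense count, and no antisense read was counted.

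The products of each overlapping pair are nearly reverse complements of each other, and have different seeds, as the RefSeq sequences on the minus strand of GRCm38.p6 show (seeds in capitals).
miR-3544-3p: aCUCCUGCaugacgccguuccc
miR-3544-5p: aGAAAGGCaucauauaggagcug
miR-3071-3p: aUCAUCAAaacaaauggagucc
miR-3071-5p: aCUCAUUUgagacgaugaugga
The first overlaps miR-337-5p by 17 bases and the second overlaps miR-337-3p by 21. The third overlaps miR-136-5p by 20 bases and the fourth overlaps miR-136-3p by 19.

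Mir337 had 6936 sense counts in replicate 1 and 3106 in replicate 2, but 11 and 1 without strand. Its antisense reads numbered 71 and 17, of which 60 and 16 were the sense reads of Mir3544. The remaining 11 and 1 equal in number the counts without strand. Mir3544 had 6936 and 3106 antisense counts, the same as the sense counts of Mir337. All sense reads of Mir337 thus lay in both hairpins, and its counts without strand held none of them. With 60 and 16 sense reads Mir3544 had reads of its own, unlike Mir3071. They were 0.865% of the count of Mir337 in replicate 1 and 0.515% in replicate 2, or 8.20 ± 4.13 CPM (SD, n = 2).

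**Figure D4:**
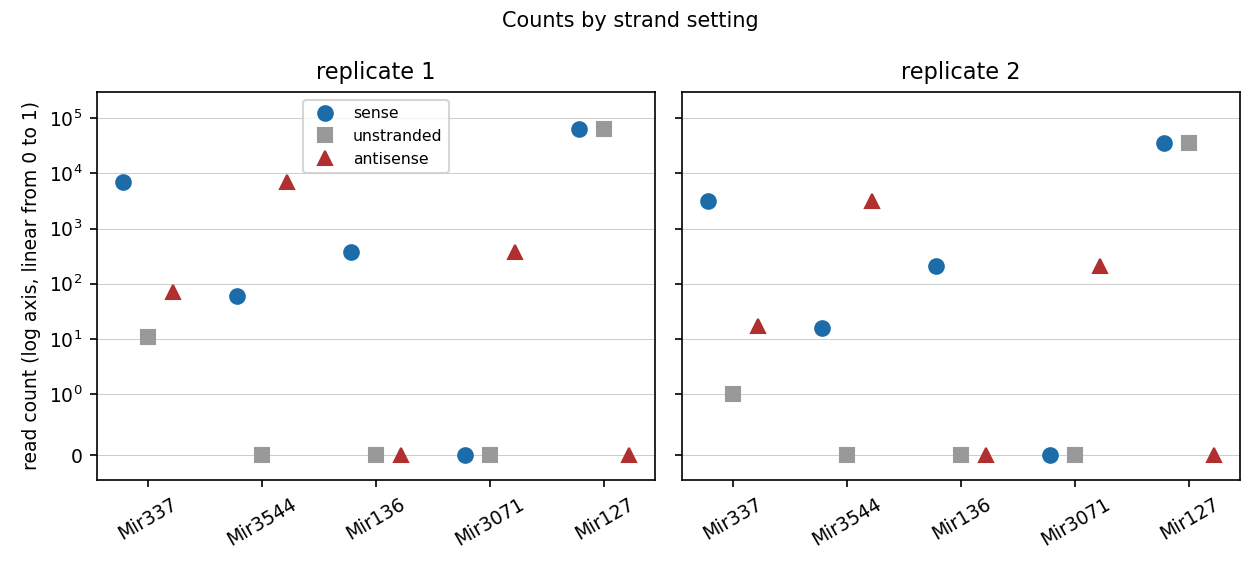
Read counts (log axis, linear from 0 to 1) by sense, unstranded and antisense counting for Mir337 and Mir136, their overlapping partners Mir3544 and Mir3071, and Mir127, which has no partner, in each library. Without strand Mir136 falls to 0 and Mir337 to 11 and 1 counts, none of them sense reads. Mir127 keeps the same 64798 and 35627 counts.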

How the data were processed

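The deposited tables hold raw read counts for 2202 miRNA genes in 3 columns without header, with 4 summary entries, which were left out of library sizes. The notes deposited with each library name mm10 and GENCODE M21, with the aligner and counting tool not given in the sources used. With the summary entries included, the columns of a library sum to the same total. They were read in order as counts without strand, sense and antisense. Sense counts were used. CPM, SDs and Wilson intervals were computed from them. With 1 group, edgeR's quasi-likelihood test had no contrast. Log2 ratios had a prior of 0.5 counts. Counts of the 2 libraries were compared without a prior by an exact binomial test (scipy 1.17.1) on TMM library sizes (edgeR 4.0.16, R 4.3.3). It took genes with a summed count of 10 or more, at a threshold of 0.05. The step was tested on simulated data with counting noise only (Poisson). They lack the wider spread between these libraries, so they do not check the calls made here. DESeq2 1.42.0 gave alternative size factors and dispersions. The members, lists and tests were chosen with earlier results of these data known. Text names the 10 genes, miRNA genes overlapping them, the 3 highest other genes of the locus, the 3 genes nearest in level to the highest member, and marker genes. PCR copies cannot be identified in the counts. Python 3.11.15 with matplotlib 3.10.9 drew the figures.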

Additional observations from a re-analysis of the deposited data

Results flagged for a closer look

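Reads on the Rtl1 strand, in the antisense column that gave no level above, passed the limit of 3 counts at 1 of the 10 genes. Mir337 had 71 antisense counts in replicate 1 and 17 in replicate 2, of which 60 and 16 were counted for Mir3544. In replicate 1 a further 11 antisense counts lay in the Mir337 hairpin outside Mir3544, against 1 in replicate 2. The antisense counts were 1.01% and 0.544% of the reads on both strands of Mir337.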

How the results depend on the processing

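The number of detected genes was 9 with a minimum of 5 counts and in either library alone, and 7 with a minimum of 100 counts or without strand. The share of the 10 genes was 1.59% to 1.68% leaving out 1 library, 1.82% with the most abundant gene left out of the totals and 1.89% without strand. Without strand the 10 genes lost 8.05% of their counts in replicate 1 and 6.88% in replicate 2. The total fell as well, since Mir126a had 11 and 3 counts without strand, against 719007 and 209931 sense counts. Genes called higher in replicate 1 numbered 6 with total counts and 0 with the common dispersion as error, against 2. They numbered 4 with no filter, 4 with at least 100 counts and 3 with the deeper library thinned. For these last settings the share called over all genes is not given, so their numbers are no result about the 10 genes. Genes called higher in replicate 2 numbered 1 with total counts, 4 with DESeq2 size factors and 0 with the common dispersion, against 2. The median log2 ratio was 0.24 with total counts, 0.070 with no filter and 0.053 with at least 100 counts. Signs turned to 0.27, 0.030, 0.24 and 0.038 for Mir433, Mir127, Mir434 and Mir136 with total counts, and to -0.049 for Mir337 with DESeq2 size factors. They turned to 0.097 and 0.070 for Mir433 and Mir434 with no filter, and to 0.080 and 0.053 with at least 100 counts. For Mir433 alone they turned to 0.0046 without strand and 0.047 with the deeper library thinned. Scaling itself moves all ratios together, and any other cause was not tested. The pooled coefficient of variation stayed between 41.4% and 42.9%. The neighbouring pairs beyond the limit were 4 with DESeq2's dispersion, and 5 of 7 without strand. At this depth a level under 3 counts, as for Mir432, was not detectable. Without replicate 1, Mir665 was 1.43-fold over Mir493, a fold of 1 library to which the limit for both does not apply. No ratio can be had without a library, and no paired analysis was possible because there is 1 group.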
